A study of Mus musculus with 2 samples.

Results

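The choroid plexus is the epithelial tissue of the brain ventricles that secretes cerebrospinal fluid. Its cells carry sodium, chloride and bicarbonate from the blood side to the ventricle, potassium is recycled at the ventricular surface, and water follows through aquaporin and other routes. The 8 genes Clic6, Kcne2, Slc4a5, Kcnj13, Aqp1, Cftr, Trpv4 and Tmem72 encode channels, transporters and a membrane protein of this epithelium, and they were selected by name among 34741 genes and transcripts on a mouse expression array. They were chosen because most of them were much brighter in one of the samples compared, so their differences between the samples are a description and carry no evidence of their own.

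The samples were hippocampus of ICR mice, an outbred strain, taken 8 weeks after a sham operation or after 5/6Nx, which the labels leave unexplained and which commonly stands for 5/6 nephrectomy, a removal of most of the kidney mass. Each group was 1 sample on 1 one-colour array with Cy3-labelled cRNA. The sources used here do not give the animals per sample, their sex and age or the way the hippocampus was dissected. With 1 array per group there was no replicate error between animals and no test, and differences of at least 2-fold are called by size alone.

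Each array carried 59305 non-control spots, of which 72.7% were well above background in sham and 72.5% in 5/6Nx, and none was saturated. Intensities were set relative to the 75th percentile of the array, and a difference is 5/6Nx minus sham on the log2 scale. Of 25917 genes measured on both arrays, 4.89% were at least 2-fold higher in 5/6Nx and 3.29% at least 2-fold lower, and the median difference was 0.05 with an SD of 0.60. The higher ones made up 59.8% of all 2-fold differences here, 49.2% after quantile normalization, 49.3% in the authors' normalized table, 47.8% after removal of the trend with signal, 42.3% with the arrays set to their medians and 29.6% with the arrays set to spike-in controls. Those last scalings moved the median of all genes to -0.11 and -0.23, so differences are relative to the bulk of genes, and values close to 0 change sign with the scaling. Where a probe was spotted repeatedly, the median SD between its spots was 0.06 in sham and 0.05 in 5/6Nx. Between different probes of a gene, the SD of the difference had a median of 0.20.

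All 8 genes were measured. They were read by 11 probes with 1 spot each, and 10 of the probes were well above background on both arrays. Clic6, Kcne2, Aqp1, Cftr and Tmem72 had 1 probe each, whereas Slc4a5, Kcnj13 and Trpv4 had 2. The first 30 of the 60 bases of the probes of Slc4a5 and Kcnj13 are given because the probes of a gene are read against each other below, with no part marked in capitals.
Slc4a5, nearer the start of the gene: gtaaagatccccatggaaggtatcccatct
Slc4a5, nearer its end: ataccgaaaacatacagcttaaaatgccac
Kcnj13, nearer the start: catatcaatggacaaagcattgacaatttc
Kcnj13, nearer the end: tgtatctcatgtttccttgttctcagtgct

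The 250 bases before the transcription start are shown for 4 of the genes. Kcne2 (4.81) and Slc4a5 (4.51) are from the upper end of the differences, and Kcnj13 (1.70) and Aqp1 (0.55) from the lower end. They are RefSeq promoter windows of the GRCm38.p6 build, written in the direction of transcription. Capitals mark every match to the short motifs listed further on.
Kcne2, chr16:92292139-92292388, plus strand: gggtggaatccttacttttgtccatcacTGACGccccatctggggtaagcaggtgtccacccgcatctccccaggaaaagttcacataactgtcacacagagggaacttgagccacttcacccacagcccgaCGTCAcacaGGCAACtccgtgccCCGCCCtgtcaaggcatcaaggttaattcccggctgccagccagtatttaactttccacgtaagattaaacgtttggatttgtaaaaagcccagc
Slc4a5, chr6:83237125-83237374, plus strand: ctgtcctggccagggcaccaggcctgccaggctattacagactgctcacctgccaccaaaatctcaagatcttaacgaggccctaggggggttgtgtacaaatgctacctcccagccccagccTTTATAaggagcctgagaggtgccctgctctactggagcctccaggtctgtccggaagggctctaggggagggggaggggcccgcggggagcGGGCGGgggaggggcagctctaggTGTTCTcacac
Kcnj13, chr1:87394730-87394979, minus strand: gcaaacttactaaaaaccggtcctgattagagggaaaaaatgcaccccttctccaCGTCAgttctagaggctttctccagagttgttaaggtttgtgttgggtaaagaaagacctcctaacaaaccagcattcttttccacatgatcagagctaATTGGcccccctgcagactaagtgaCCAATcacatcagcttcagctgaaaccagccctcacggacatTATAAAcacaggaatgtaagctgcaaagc
Aqp1, chr6:55336049-55336298, plus strand: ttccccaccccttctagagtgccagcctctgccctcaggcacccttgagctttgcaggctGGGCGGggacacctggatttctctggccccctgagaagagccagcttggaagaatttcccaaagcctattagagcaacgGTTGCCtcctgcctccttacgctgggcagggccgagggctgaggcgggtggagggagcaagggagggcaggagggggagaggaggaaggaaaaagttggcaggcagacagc

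All 8 genes were brighter in the 5/6Nx sample, 7 of them by at least 2-fold, with a median difference of 2.23 (4.69-fold). The same 7 were at least 3-fold higher, and none was at least 2-fold lower. Over all measured genes 4.89% were at least 2-fold higher, 1.49% at least 3-fold higher and 8.18% past 2-fold in either direction, and 55.4% lay above 0. Because the genes were picked on this contrast, nothing is read from their count. Their differences fell into a group of 3 between 22.8-fold and 29.9-fold (Clic6, Kcne2 and Slc4a5), a group of 4 between 3.26-fold and 5.59-fold (Trpv4, Tmem72, Cftr and Kcnj13), and Aqp1 at 1.47-fold. The gap between the first groups depended on background subtraction: with none, Clic6 was at 22.9-fold, Kcne2 at 8.51-fold, Slc4a5 at 7.46-fold and Trpv4 at 4.69-fold.

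Clic6, a chloride intracellular channel protein, had the largest difference of the 8 genes. Its probe, at chr16:92541363-92541422 of the mm9 build, had a processed intensity of 271 in sham and 7042 in 5/6Nx. Clic6 was therefore bright in 5/6Nx and modest in sham, with a difference of 4.90 (29.9-fold). The standard error from the pixels of the spots was 0.0532, which leaves out the variation between animals. Only 5 of the 25917 genes and transcripts had a larger difference, since Clic6 stood at rank 6.

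Cftr encodes the cyclic-AMP-regulated chloride and bicarbonate channel of many secretory epithelia. The probe at chr6:18270974-18271033 (mm9) had an intensity of 709 in sham and 2224 in 5/6Nx. Its signal was thus well clear of background already in sham, and the difference was 1.85 (3.61-fold, pixel standard error 0.0502). Cftr stood at rank 212 of all measured genes.

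Kcne2 encodes an accessory subunit of voltage-gated potassium channels that pairs with Kcnq1 and Kcna3 in this epithelium. Its probe at chr16:92298236-92298295 (mm9) read 27.7 in sham and 676 in 5/6Nx. In sham it stood close to the background, and its difference of 4.81 (28-fold, pixel standard error 0.171) depended on how that background was subtracted. The difference was 3.27 (9.65-fold) with normexp background correction and 3.09 (8.51-fold) with no subtraction. The channel subunits that Kcne2 pairs with did not reach 2-fold: Kcnq1 had a difference of -0.16, with 0.31 on its other probe, and Kcna3 of -0.44, with intensities of at most 156 for the probes used.

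Kcnj13 encodes Kir7.1, the inwardly rectifying potassium channel of the ventricular membrane. Both of its probes were well above background in both samples. The brighter probe, at chr1:89282991-89283050 (mm9), read 1199 in sham and 3400 in 5/6Nx, a difference of 1.70 (3.26-fold, pixel standard error 0.0489). The other probe, at chr1:89282859-89282918, read 1011 and 1771, a difference of 1.01 (2.01-fold, pixel standard error 0.0481). The probes lie 72 bases apart and were 0.69 apart in their differences. The median SD between probes of a gene was 0.20. For 2 values the SD is their distance divided by the square root of 2. On that measure too, the probes of Kcnj13 were farther apart than the median of 0.20. The dimmer probe was on the edge of the 2-fold size, with 0.99 in the authors' normalized table, and the mean of both probes gave 1.36. Kcnj13 lies within the span of another gene, Gigyf2, which had a difference of -0.24.

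Slc4a5 encodes NBCe2, an electrogenic sodium bicarbonate cotransporter of the ventricular membrane. The probe used for the gene, at chr6:83253664-83253723 (mm9), read 31.4 in sham and 624 in 5/6Nx. As for Kcne2, the sham value lay close to background, and the difference of 4.51 (22.8-fold, pixel standard error 0.143) became 3.12 (8.69-fold) with normexp correction and 2.90 (7.46-fold) with no subtraction. The other probe lies 4160 bases away at chr6:83249444-83249503. It was not well above background in sham, with 6.60, and read 162 in 5/6Nx. With background subtracted, Slc4a5 was thus at least 10.8-fold higher by that probe. This bound sets the 5/6Nx value against the lowest signal that was well above background on the sham array. It does not hold without subtraction, where the spot means of that probe were 84.2 in sham and 221 in 5/6Nx.

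Aqp1 encodes aquaporin-1, the water channel of the ventricular membrane and one of the classical proteins of this epithelium. Its only probe, at chr6:55298480-55298539 (mm9), read 108 in sham and 137 in 5/6Nx. The spot means were 189 and 226 against local backgrounds of 63 and 65, so the gene was measured on both arrays but dim on both. Its difference of 0.55 (1.47-fold, pixel standard error 0.105) did not reach the 2-fold size and was 0.27 with spike-in scaling. A larger difference was found for 14.9% of all measured genes, which sets Aqp1 apart from the other 7, for which this share was at most 1.15%.

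Trpv4 encodes a calcium-permeable cation channel opened by cell swelling and by lipid messengers. The brighter probe, at chr5:115072208-115072267 (mm9), read 342 in sham and 1661 in 5/6Nx, a difference of 2.48 (5.59-fold, pixel standard error 0.0469). The other read 60.3 and 265, a difference of 2.34 (5.05-fold, pixel standard error 0.126). The probes of Trpv4 differed by 0.14, within the usual spread between probes of a gene, although the second was much dimmer.

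Tmem72 encodes a transmembrane protein of the same epithelium. Its probe at chr6:116642756-116642815 (mm9) read 53.5 in sham and 183 in 5/6Nx, and both spots were well above background. The difference was 1.98 (3.93-fold, pixel standard error 0.136). It was 1.32 (2.50-fold) with normexp correction and 1.20 (2.30-fold) with no background subtraction, so Tmem72 stayed above 2-fold but by a small margin.

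**Figure D1:**
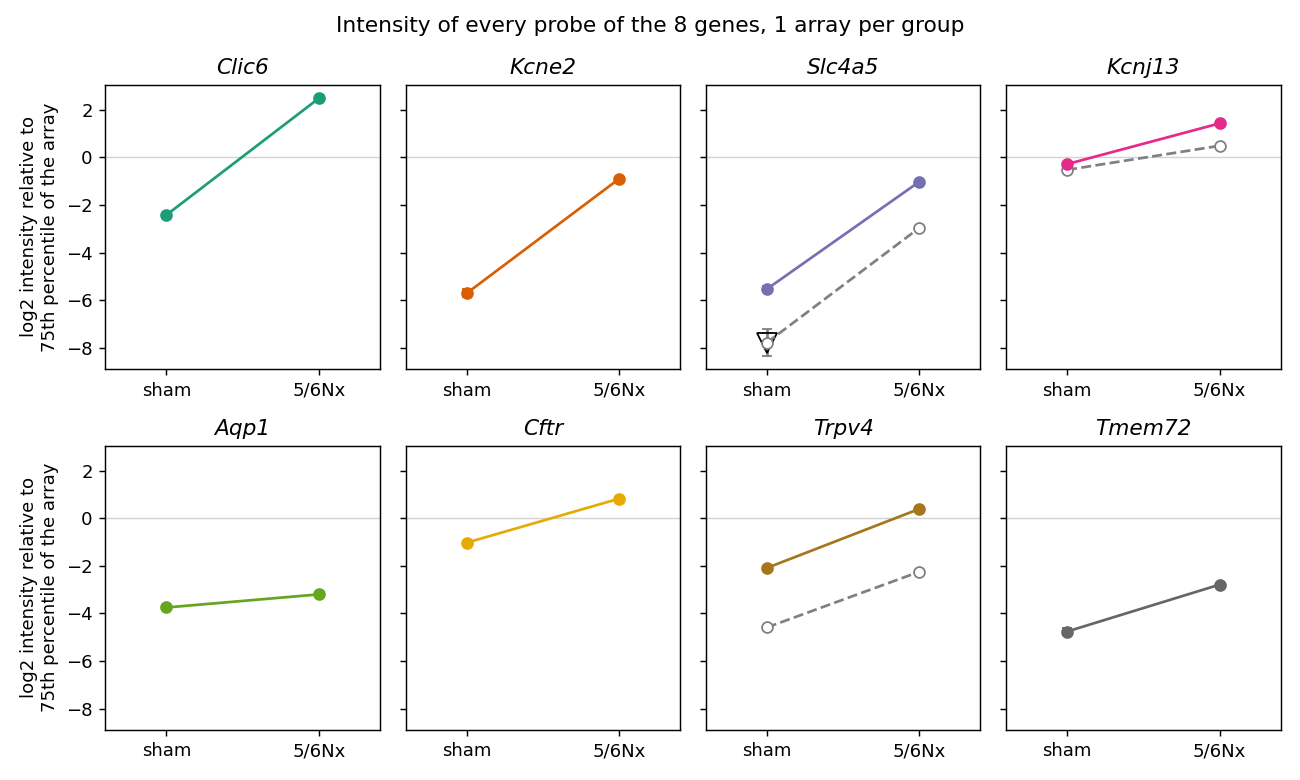
Each panel plots the log2 intensity of a gene relative to the 75th percentile of the array (y axis) in the sham and the 5/6Nx sample (x axis), with the probe used for the gene as a solid line, any other probe as a dashed grey line, and bars for the standard error from the pixels. The lines of Clic6 (4.90), Kcne2 (4.81) and Slc4a5 (4.51) are steep and that of Aqp1 (0.55) is nearly flat; the triangle marks the Slc4a5 probe that was not well above background in sham.

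Local background around the 11 spots lay between 60 and 69 on both arrays and differed by at most 5 between them. Spots within 10 rows and columns of each had median differences between 0.00 and 0.17, in windows of 171 to 316 spots. The GC content of the 11 probes ran from 30% to 55.0%, with a median of 36.7% against 43.3% for all probes.

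**Figure D2:**
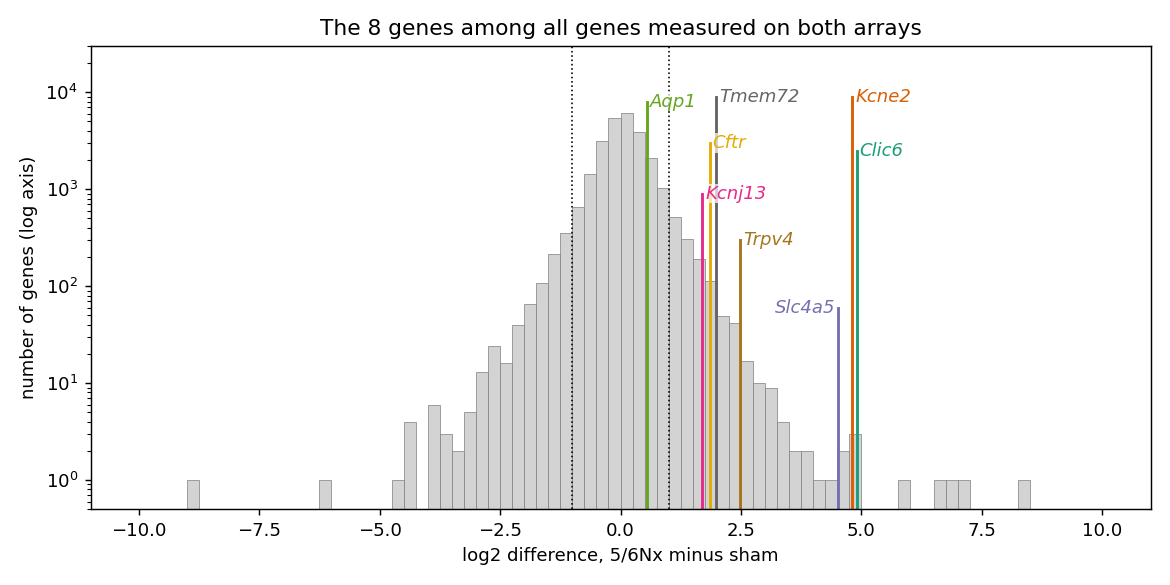
The grey bars count genes (y axis, log scale) by their log2 difference, 5/6Nx minus sham (x axis), over the 25917 genes measured on both arrays, the coloured lines stand at the 8 genes at heights chosen only for legibility, and dotted lines mark 2-fold. Clic6, Kcne2 and Slc4a5 lie in the far right tail, Kcnj13, Cftr, Tmem72 and Trpv4 between 1.70 and 2.48, and Aqp1 in the body of the distribution.

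In each family the values of the relatives are set beside the 4.89% of all genes that were at least 2-fold higher and the 3.29% that were lower; the families had 4 to 14 measured genes each, and none was tested against those shares. In the CLIC family Clic3 was 2.33-fold higher (1.22), from 90.6 to 184, while Clic1 (0.06), Clic5 (-0.15) and Clic4 (-0.58) were within 2-fold. In the KCNE family, Kcne3 was 2.23-fold higher (1.16), from 97.7 to 190, Kcne4 had 0.13 and Kcne1l -0.84, and on neither array was Kcne1 well above background. Among bicarbonate transporters of the SLC4 family, Slc4a5 was the only member of 11 measured that passed 2-fold, and the other 10 had a median of -0.19. This list also held Slc4a1ap (-0.47), which is an adaptor protein and no transporter. The farthest from 0 after Slc4a5 were the erythrocyte anion exchanger Slc4a1 (-0.91) and of Slc4a11 (0.58).

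Of the 14 inward rectifier genes measured, Kcnj13 was the only one at least 2-fold higher, and Kcnj2 lay just under that size at 1.99-fold. Kcnj12 (-2.74, from 1506 to 196), Kcnj16 (-1.93, from 6041 to 1375) and Kcnj5 (-1.09, from 106 to 43.5) were at least 2-fold lower. The astrocyte channel Kcnj10, which forms channels with Kcnj16, had -0.27. None of the 8 aquaporins measured passed 2-fold: Aqp11 had 0.59, Aqp1 0.55 and the astrocyte water channel Aqp4 -0.83. Of the 10 members of the ABCC family, the one that holds Cftr, Abcc9 was also 2.03-fold higher (1.02), and the family's median without Cftr was 0.45. Trpv4 was the only one of 4 measured TRPV channels past 2-fold, and Trpv1 (-0.21), Trpv6 (-0.19) and Trpv2 (-0.46) lay below 0. With the arrays set to spike-in controls the medians of the CLIC (-0.22), KCNJ (-0.13) and aquaporin (-0.05) families were below 0 instead of above it, and so was that of the CLIC family (-0.09) with the arrays set to their medians.

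A list of 36 other genes that serve fluid secretion, all of them measured, lay around 0. The list was drawn up with earlier results of these data known, and the 8 genes picked on this contrast are not in it. That it lay around 0 is thus a description and no evidence about secretion genes as a whole. Its median was -0.02, with 17 genes above 0 and 19 below, and 1 gene was at least 2-fold higher and 0 lower, against 4.89% and 3.29% of all genes. That gene was Car14, a membrane carbonic anhydrase, from 1183 to 2780 (1.43, 2.70-fold). Lrrc8a, the core subunit of volume-regulated anion channels, had 0.94 and Car12, a further membrane carbonic anhydrase, 0.80. The cytosolic carbonic anhydrase Car2 had the lowest value, -0.63. The cotransporter Slc12a2 (NKCC1), which carries sodium, potassium and chloride, went from 6779 to 8287 (0.49), and the anion exchanger Slc4a2 had 0.37. The sodium bicarbonate transporter Slc4a10, expressed in neurons as well as in this epithelium, had -0.11, and the kinase Stk39 that activates Slc12a2 had -0.09. Many genes of this list are also transcribed in neurons and glia of the hippocampus.

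**Figure D3:**
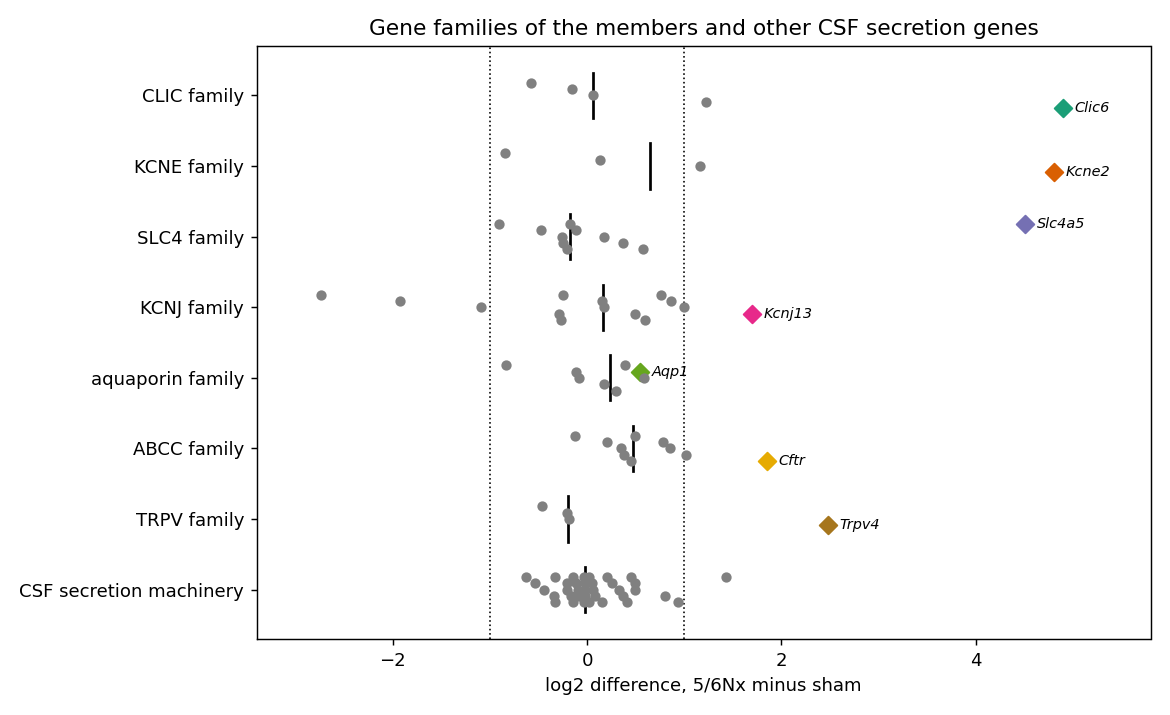
Each point is the log2 difference, 5/6Nx minus sham (x axis), of a measured gene in the gene family or list named on the y axis, with coloured diamonds for the genes studied here, grey points for the others, black bars for list medians and dotted lines at 2-fold. Clic6, Kcne2, Slc4a5, Kcnj13, Cftr and Trpv4 stand to the right of all their relatives, Aqp1 does not, and of the other secretion genes Car14 lies past 2-fold at 1.43. The genes studied here were picked on this contrast, so their place among relatives is only a description.

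Markers of the choroid plexus epithelium other than the 8 genes were mostly higher in 5/6Nx as well. Of 26 measured markers, 25 lay above 0, 20 were at least 2-fold higher and 1 was lower, with a median of 1.98. Over all measured genes 55.4% lay above 0, 4.89% were at least 2-fold higher and 3.29% lower. The markers were listed with earlier results of these data known, so their counts are a description and no independent evidence. Ttr, the transthyretin gene and the most abundant secreted product of the tissue, went from 2160 to 189501 (6.66), the secreted peptide gene Ecrg4 from 475 to 9510 (4.52), the collectrin gene Cltrn from 50.1 to 923 (4.41) and the folate receptor gene Folr1 from 429 to 5858 (3.97). Otx2, the transcription factor that defines this epithelium, went from 194 to 2013 (3.58), although its other probe had 0.92. The junction gene Cldn2 was above background in 5/6Nx only, and with background subtracted it was at least 8.64-fold higher. The exception was Slc13a4, a sulfate transporter, which was 2.61-fold lower (-1.38). The summed signal of the 26 markers, in percent of the 75th percentile of each array, was 3443 in sham and 24651 in 5/6Nx (7.16-fold), and without Ttr 3295 and 9649 (2.93-fold). Without Enpp2, the brightest marker by mean log2 signal, but with Ttr, it was 1957 and 18657 (9.53-fold). The summed signal of the 8 genes, on the same scale, was 189 and 1262 (6.69-fold). Of this, Clic6 made up 18.7 and 557. Without Kcnj13, the brightest of the 8 by mean log2 signal, the sum was 106 and 993 (9.35-fold). The folds of these sums thus depend on a few bright genes.

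The 8 genes were spread over the range of these markers. Clic6 and Kcne2 were exceeded in their difference by 1 of the 26 markers, Slc4a5 by 2, Trpv4 by 9, Tmem72 by 13, Cftr and Kcnj13 by 15, and Aqp1 by 23. How much choroid plexus epithelium each hippocampal sample held was not measured apart from these transcripts, and its part in the differences of the 8 genes was not tested. In such bulk tissue, more cells of a type and more RNA per cell cannot be told apart.

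Markers of other cell types are read against the same shares of all genes, 4.89% higher and 3.29% lower, with no test; the lists of ependyma, neurons and astrocytes had 1 or 2 calls each. Of 12 ependymal markers, the ciliated lining of the ventricles, 1 was at least 2-fold higher (Cfap126, 1.15) and 1 lower (Rarres2, -1.33), the median was 0.09, the ciliary regulator Foxj1 had 0.08, and the summed signal was 1105 in sham and 934 in 5/6Nx. Leptomeningeal markers were lower in 5/6Nx, past 2-fold for 12 of the 13 measured and below 0 for all 13, with a median of -2.35, led by Slc22a2 (-3.11) and Slc13a3 (-2.71), and their summed signal was 25460 and 19332. Most of that sum was Ptgds, the prostaglandin D synthase gene (-0.14), and without it the sum was 5692 and 1344 (4.24-fold lower). Blood cell markers had a median of -3.73, with 8 of 9 past 2-fold in the same direction, led by S100a9 (-4.39) and S100a8 (-4.34), and their summed signal was 21097 and 1711. Of the hippocampal neuron markers, 2 of 14 were at least 2-fold lower (Ccn3 at -1.34 and Wfs1 at -1.12) and 0 higher, the median was 0.26 and the summed signal 17278 and 18149. The glutamate transporter gene Slc17a7 of excitatory neurons had 0.12, and the dentate granule transcription factor Prox1 0.30, and both were well above background in both samples. Astrocyte markers had a median of -0.13, with 1 of 8 at least 2-fold higher (Gfap, 1.12). The samples thus differed in leptomeningeal and blood markers at the same time as in the 8 genes, and the part of this difference in the result was not tested.

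**Figure D4:**
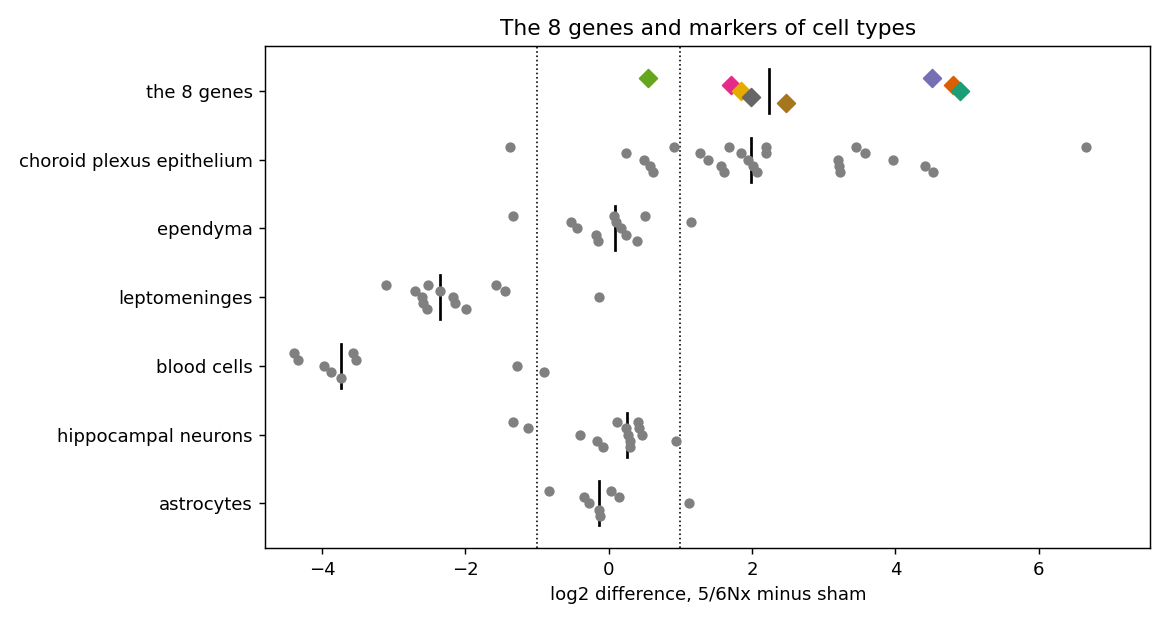
Each point is the log2 difference, 5/6Nx minus sham (x axis), of a measured gene, for the 8 genes (coloured diamonds) and for markers of the cell types on the y axis (grey points), with black bars for medians and dotted lines at 2-fold. The medians of the 8 genes (2.23) and of choroid plexus markers (1.98) lie to the right, those of leptomeninges (-2.35) and blood cells (-3.73) to the left, and the other lists near 0.

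By the order of RefSeq genes on GRCm38.p6, 4 of the 8 genes lie on chromosome 6, and Kcne2 and Clic6 lie near each other on chromosome 16. Of the protein-coding genes between Kcne2 and Clic6, Smim11 had -0.34 and Rcan1 0.08, and Kcne1 was not well above background. Of 20 nearest, overlapping or intervening protein-coding genes, 15 were measured, with a median of -0.24, and 2 were at least 2-fold higher, against 4.89% of all genes. These were Runx1 (1.18), which follows Clic6, and the chemokine gene Cxcl12 (1.52), which follows Tmem72.

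Promoter windows were found for 7 of the 8 genes, 8 windows in all because Kcne2 has 2 starts, and Clic6 was not in the table. The motifs were searched on both strands in the 250 bases before the start, and shares are of all 32851 windows. The GC box GGGCGG was in 5 of the 8 windows (Kcne2, Slc4a5, Aqp1, Cftr and Trpv4) and in 32.7% of all. The TATA box TATAAA was found for Slc4a5, in the reverse direction, and for Kcnj13, 29 bases before the start (12.4% of all), and CCAAT for Kcnj13 at 2 places (33.8%). The letters GTTGCC, a core of the RFX motif, were found for Kcne2 and Aqp1 (10.4%), TGACG, a core of the cyclic AMP response element, for Kcne2 and Kcnj13 (17.8%), and AGAACA, a core of the glucocorticoid receptor motif, for the second window of Kcne2 and for Slc4a5 (16.1%). TAATCC, the core that OTX proteins bind, GTAAACA of forkhead factors and the E-box CACGTG were in none of the 8 windows and in 6.25%, 3.17% and 6.02% of all. None of the 9 motifs was found for Tmem72. The GC content of the windows ran from 45.2% for Kcnj13 to 76.4% for Cftr, around a median of 52.4% for all promoters. These matches describe letters and not binding.

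Over these 2 arrays the likeness of a gene can only be read from its difference. The 5 measured genes outside all lists whose difference lay nearest to the median of the 8 were the desmoglein gene Dsg1c (2.22), 1700109H08Rik (2.23), the kinesin gene Kif12 (2.24), 2210416O15Rik (2.25) and Oca2 (2.25).

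**Figure D5:**
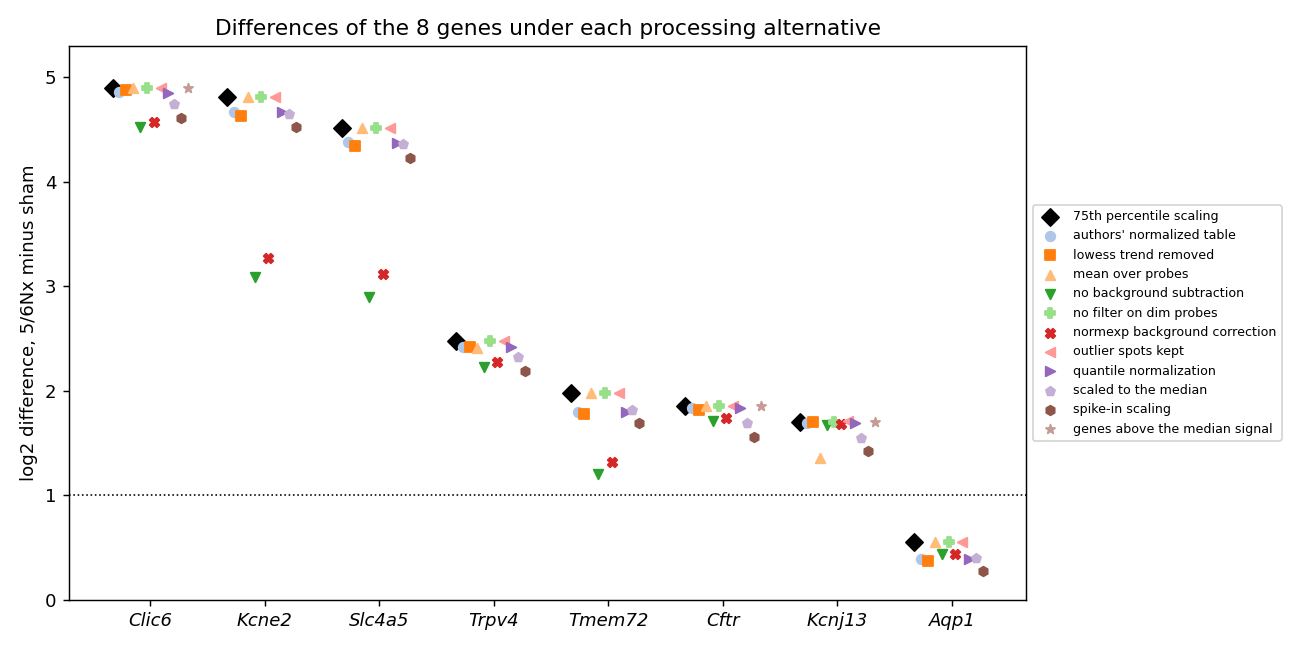
The log2 difference, 5/6Nx minus sham (y axis), of each gene (x axis) is shown with the 75th percentile scaling (black diamonds) and under 11 processing alternatives (other symbols), with a dotted line at 2-fold. Kcne2 drops to 3.09 and Slc4a5 to 2.90 without background subtraction, Clic6 stays between 4.52 and 4.90, and Aqp1 stays under 2-fold throughout, between 0.27 and 0.55.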

How the data were processed

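Hippocampal RNA of 1 sham and 1 5/6Nx sample was amplified, labelled with Cy3 and hybridised to Agilent arrays, per the labels' protocols. The authors deposited linear intensity values per spot, extracted with Feature Extraction 10.7.1.1 per the file headers (9.5.1.1 per the submitters' processing notes), background-subtracted by spatial detrending within each array, and a table normalized by a step that is not given. Its columns have 1 common median, 124.

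Control spots and spots marked as outliers (105 and 97) were left out, log2 values were taken relative to the 75th percentile, and a gene was read from its brightest probe above background on at least 1 array. Members were matched by gene name, others through RefSeq (27235 probes by accession, 3581 by symbol, 565 by synonym). A number of arrays this small limits the precision, and no p-value was computed. Genes were named by rule: all members, family and secretion genes past 2-fold or with up to 3 of the largest differences, up to 4 per cell type with the defining markers, neighbours, and the 5 nearest in difference; a few others of those lists were added after their values were seen. Members and lists were chosen with earlier results of these data known. Calculations (Python 3.11.15, limma 3.58.1 for normexp) were tested on simulated data. Some items of the lists and probes are not reported here.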

Additional observations from a re-analysis of the deposited data

How the results depend on the processing

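No paired analysis was possible because sham and 5/6Nx share no more than 1 replicate number, and with a lone array per group none could be left out. Signal over background limits what the dim sham values of Kcne2, Slc4a5 and Tmem72 show. In all 83 values under the 11 alternatives the 8 genes lay above 0 and on their side of 2-fold; they were picked on the same arrays, so this is no sign of stability. A median is taken to have moved when it did so by at least 0.20, the spread between probes of a gene, and a count when it did so by over 1.5 times. Filters and thresholds change by construction which genes are counted; for the other moves the cause was not tested.

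Keeping only genes above the median signal left 3 of the 8 genes (median 1.85, all 3 past 2-fold) and gave 319 genes higher and 305 lower; medians were -0.84 for the KCNE family, -0.46 for TRPV, -0.06 for KCNJ, -0.12 for aquaporins, 1.42 for choroid plexus and -0.18 for ependyma. With no background subtraction and with normexp, in this order, the median of the 8 genes was 1.97 and 2.0, genes higher were 635 and 683, genes lower 468 and 497, and the lists moved to -3.28 and -3.32 (blood cells), -1.91 and -1.97 (leptomeninges) and 1.47 and 1.51 (choroid plexus); TRPV stood at 0.01 with no subtraction. Spike-in scaling gave 1.94 for the 8 genes, 704 genes higher and 1677 lower, and medians of 0.19 for ABCC, -0.22 for CLIC, 0.35 for KCNE, -0.13 for KCNJ, -0.47 for SLC4, -0.49 for TRPV, -0.05 for aquaporins, -0.30 for the secretion list, -0.42 for astrocytes, -4.02 for blood cells, 1.69 for choroid plexus, -0.20 for ependyma, -0.03 for hippocampal neurons and -2.64 for leptomeninges. KCNE stood at 0.44 with the trend removed and at 1.16 with no filter, which gave 2590 genes higher and 1668 lower. At 1.5-fold 3549 were higher and 2313 lower, and at 3-fold 387 and 245.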
